A study of Mus musculus with 14 samples.

Results

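Liver expression in mice given furan at 1 mg/kg body weight was compared with that in vehicle controls. The comparison used 9 of the 14 arrays of the series, 5 at 1 mg/kg and 4 of controls, and its members were chosen by the titles of the samples, so that no measured value entered the choice. All were females of B6C3F1, a hybrid strain long used in rodent cancer bioassays, bought at 5 to 6 weeks of age and acclimatised for at least 7 days. Controls received corn oil by gavage, and treated mice received furan at 1 or 8 mg/kg for 3 weeks. Every mouse, controls included, drank BrdU, a thymidine analogue built into newly made DNA, during the last 5 days, and livers were taken 4 h after the final dose. The comparison therefore describes furan in mice that also had BrdU, and mice without BrdU were not analysed here. Each array measured 1 liver in Cy5 against a universal mouse reference RNA in Cy3. A value below is the log2 ratio of liver over reference, and a difference is the value at 1 mg/kg minus that in controls.

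Furan is a volatile heterocycle that forms in heated food. In the liver it is oxidised, mainly by the cytochrome P450 Cyp2e1, to a reactive unsaturated dialdehyde that binds protein and glutathione. Cells answer electrophiles of this kind through NRF2, which drives conjugating and reducing enzymes, and answer DNA damage through p53, which drives cell cycle arrest genes such as Cdkn1a. The comparison asks what a low dose changed, and for genes that did not pass a test the interval around the difference gives the largest change the data leave possible.

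The 9 arrays lay on 5 slides. Slides 1 to 4 each held 1 control and 1 array at 1 mg/kg, and slide 5 held 1 mg/kg replicate 2 with no control. Slide was fitted as a block, and the 5 arrays at 8 mg/kg entered the same limma fit and its estimate of the spread. Among the 9 arrays, 39.6% of the variance fell on the leading principal component, and 92.1% of that component lay between slides and 0.784% between the 2 groups. On that component the arrays of slide 3 (control replicate 3 and 1 mg/kg replicate 4) stood apart. All 29 measured hepatocyte markers were well above background on all 9 arrays. Between 23941 and 27261 of 55681 probes exceeded background clearly (the scanner's own flag, called well above background here) in the liver channel of controls and between 23065 and 29850 at 1 mg/kg. Within each of the 4 shared slides the array at 1 mg/kg had more such probes than its control, and the part of this in the differences below was not tested.

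At 1 mg/kg the differences from control were small across the genome. The median absolute log2 difference was 0.0801 over 21976 genes, of which 13773 had a symbol, and the 99th percentile was 0.37. At 8 mg/kg, against the same controls, these were 0.112 and 0.69. A difference of 1.5-fold or more was measured for 29 genes at 1 mg/kg, 24 higher and 5 lower, and for 340 at 8 mg/kg. Differences of 2-fold or more numbered 2 at 1 mg/kg, those of Cfd and Dmbt1, and 69 at 8 mg/kg. These counts at 1 mg/kg moved with single arrays and with the background method. Past 1.5-fold there were 93 genes without control replicate 2, 86 without 1 mg/kg replicate 3, 54 without control replicate 3 and 798 with the scanner's processed signals. Past 2-fold there were 11 without 1 mg/kg replicate 3, 6 without control replicate 1 and 6 without 1 mg/kg replicate 1, 4 without control replicate 2 and 4 without 1 mg/kg replicate 5, and 144 with the processed signals. In limma's test 0 genes passed an adjusted p of 0.05 at 1 mg/kg (0% in either direction), while 600 higher (2.73%) and 299 lower (1.36%) passed at 8 mg/kg, 4.09% in all.

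**Figure D1:**
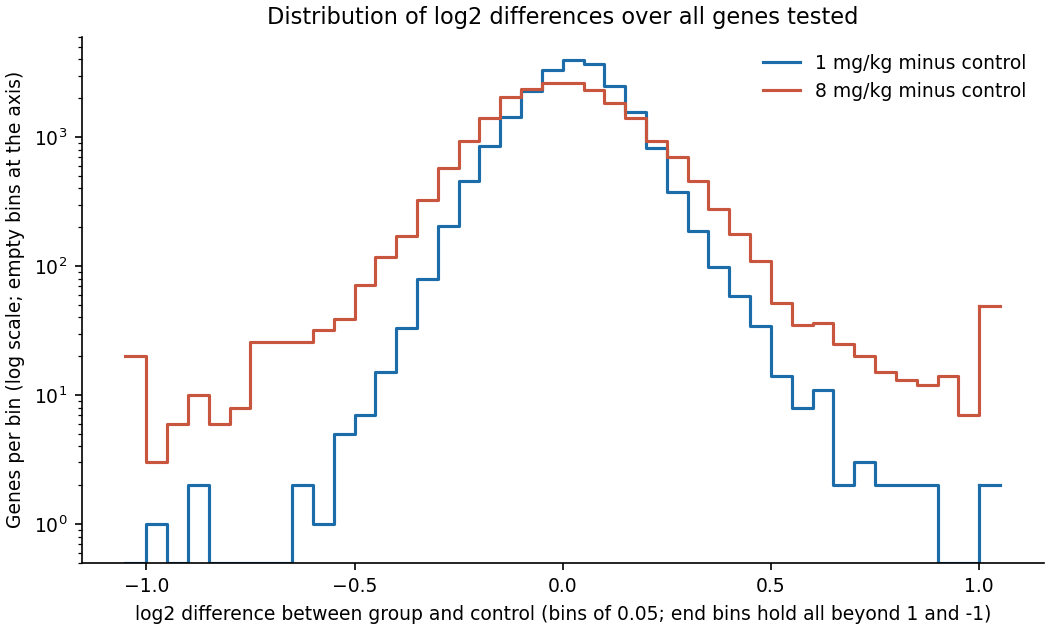
Number of genes (log scale) by log2 difference from control, in bins of 0.05, for 1 mg/kg (blue) and 8 mg/kg (red), which share the 4 control arrays. The distribution at 1 mg/kg is the narrower, with a 99th percentile of absolute difference of 0.37 against 0.69, and 2 genes lie in its end bin above 1.

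At an unadjusted p under 0.05, 1088 genes were higher (4.95%) and 429 lower (1.95%) at 1 mg/kg, 6.9% in all. In all 4 shared slides 2216 genes (10.1%) were higher than control and 1219 (5.55%) lower. The 5 arrays at 1 mg/kg lay above all 4 controls for 115 genes (0.523%) and below them for 67 (0.305%). This surplus of higher genes moved with single arrays and with scaling. Without control replicate 4, 509 genes were higher and 290 lower, without 1 mg/kg replicate 1 there were 674 and 350, without 1 mg/kg replicate 5 there were 617 and 419, and without slide 1, which holds control replicate 4 and 1 mg/kg replicate 5, there were 444 and 312. Without control replicate 1 the counts were 710 and 417. The surplus was larger without 1 mg/kg replicate 3, at 1565 and 377, without control replicate 2, at 1431 and 492, and without control replicate 3, at 1337 and 461. Higher genes made up 71.7% of those at an unadjusted p under 0.05 as processed here, 61.5% with the ratios the authors deposited and 43.96% with the liver channel alone. When arrays were centred on their median in place of loess, the median of all genes moved from 0.0294 to 0.15 and the share was 99.6%. No direction is therefore read from the balance of higher and lower genes.

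The limits on change were tight for well-measured genes. The standard error of a difference had a median of 0.0992, and the 95% confidence interval reached 0.21 on the log2 scale to either side, or 1.16-fold. The unadjusted interval lay within 1.5-fold of no change for 21251 genes (96.7%) and within 1.2-fold for 7082 (32.2%). A pair of one-sided moderated tests, adjusted over all genes, then asked whether a change of a given size could be bounded. By this test 21938 genes (99.8%) were limited to less than 2-fold and 21521 (97.9%) to less than 1.5-fold. At 8 mg/kg the same test limited 99.1% and 94.2%.

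These limits depend on signal. The background correction adds an offset of 50 to each intensity, which draws the ratios of dim probes towards 0 and narrows their intervals. Among the 17164 genes well above background on all 9 arrays, 97.7% were limited to less than 1.5-fold as processed here and 87.8% with the scanner's processed signals, which are processed differently throughout. Among the other 4812 genes the shares were 98.9% and 18.8%, with 88.6% at an offset of 16 and 97.96% with no background correction, so for dim genes the limit moved with how the background was handled. For the 5494 brightest genes the shares were 98.2% and 95.7%. The limit of 2-fold held for 98.1% of genes well above background on all 9 arrays with the processed signals.

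**Figure D2:**
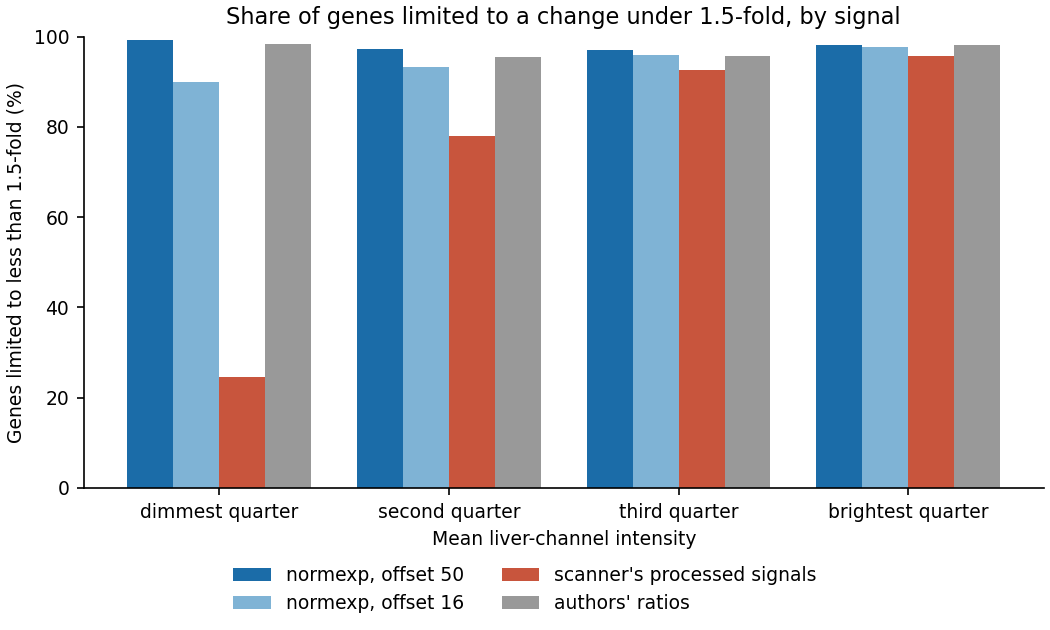
Percentage of genes limited to less than 1.5-fold at 1 mg/kg (bars, from 0) in 4 groups of 5494 genes by mean liver-channel intensity, under 4 ways of obtaining the ratio. With the scanner's processed signals the share is 24.6% in the dimmest group and 95.7% in the brightest, whereas the offset of 50 gives 99.2% and 98.2%.

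The genes that changed most at 8 mg/kg were mostly bounded at 1 mg/kg. Both comparisons use the same 4 controls, so their values are set side by side only. Of the 600 genes that rose at 8 mg/kg, 595 were limited to less than 2-fold and 566 to less than 1.5-fold at 1 mg/kg. Of the 299 that fell, these numbers were 296 and 289. The 61 genes that changed by at least 2-fold at 8 mg/kg were the least well bounded, with 55 (90.2%) limited to less than 2-fold and 39 (63.9%) to less than 1.5-fold, against 99.8% and 97.9% of all genes. A response in proportion to dose on the log2 scale would put 1/8 of the 8 mg/kg log2 difference at 1 mg/kg. For 0 genes did that exceed the half-width of the 95% interval. A measured difference of that size would therefore leave 0 inside the interval in every single gene. The unadjusted intervals of some genes lay below it, as for Gsta1, with an upper bound of 0.31 beside 0.44. Those of others held it, as for Cdkn1a, with 0.27 between -0.21 and 0.52. Proportion to dose in linear amounts of RNA is a different measure and was not tested.

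Of the genes that handle furan itself, Cyp2e1, which forms the dialdehyde, lay at 5.96, 6.30, 7.80 and 6.23 in control replicates 1 to 4. At 1 mg/kg it lay at 6.24, 6.65, 6.15, 8.11 and 6.79 in replicates 1 to 5. The groups overlapped, and within slides the difference was 0.57, 0.29, 0.31 and -0.15 on slides 1 to 4. The fitted difference was 0.29 ± 0.12 (SE, n = 5 against 4; limma adjusted p = 0.701). Another Cyp2e1 probe gave -0.03 ± 0.10, and across 26 alternatives the value of Cyp2e1 ran from 0.0478 to 0.42.

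Ephx1, the microsomal epoxide hydrolase and an NRF2 target, lay at 1.51, 1.70, 2.08 and 1.70 in controls and at 1.86, 1.62, 1.78, 2.42 and 1.94 at 1 mg/kg. It was higher in each of the 4 slides, by 0.0760 to 0.35. The difference was 0.27 ± 0.08 (limma adjusted p = 0.701), with a 95% interval of 0.0914 to 0.44, and another probe gave 0.29 ± 0.09. At 8 mg/kg Ephx1 rose by 0.92, and it was higher at 8 than at 1 mg/kg by 0.65 ± 0.08 (adjusted p = 0.000429). In that contrast 529 genes were higher at 8 mg/kg (2.41%) and 632 lower (2.88%), 5.28% in all.

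Gsta1, Gsta2 and Gsta4 are alpha-class glutathione S-transferases, which conjugate electrophiles to glutathione. Each lay lower at 1 mg/kg in 3 of 4 slides. Gsta2 was at 4.18, 3.23, 3.88 and 4.13 in controls and at 2.92, 2.62, 3.74, 3.43 and 3.45 at 1 mg/kg. The groups overlapped, because control replicate 2 was lowest among controls and 1 mg/kg replicate 3, on the same slide, was highest among treated mice. The difference was -0.52 ± 0.23 (limma adjusted p = 0.701), while Gsta2 rose by 1.5 on the log2 scale at 8 mg/kg. Gsta1 differed by -0.47 ± 0.36, with an interval from -1.24 to 0.31 that did not reach its rise of 3.48 at 8 mg/kg. Gm10639, a predicted gene that was lower on slides 1 to 3 and higher on slide 4 as were Gsta1 and Gsta2, differed by -0.54 ± 0.32 at 1 mg/kg and rose by 2.82 at 8 mg/kg. Probes of these close relatives can bind each other's transcripts, so the values of Gsta1, Gsta2 and Gm10639 may not be separate measurements. Gsta4 differed by -0.20 ± 0.09 at 1 mg/kg and did not rise at 8 mg/kg, where it differed by -0.24 (limma adjusted p = 0.143).

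Other NRF2 targets were close to control. Nqo1, a quinone reductase, differed by -0.02 ± 0.11, with an interval of -0.26 to 0.22. Gclc, the catalytic subunit that limits glutathione synthesis, differed by 0.17 ± 0.14, Hmox1, a heme oxygenase, by 0.0767 ± 0.18, Gstm1 by 0.10 ± 0.11 and Cbr3, a carbonyl reductase, by 0.0632 ± 0.20. Each of these 5 was limited to less than 2-fold by the adjusted test, and each rose at 8 mg/kg, by 0.69 (Nqo1) to 1.58 (Cbr3). In the NRF2 list 38 of 40 genes were measured, 0 passed, and the median difference was 0.0144 against 0.0294 over all genes.

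Among the p53 targets, Cdkn1a, Ccng1, Mdm2, Aen and Gdf15 had upper bounds at 1 mg/kg below their rises at 8 mg/kg. The bound of Ccng1 was 0.44 beside a rise of 1.01, and that of Mdm2 was 0.36 beside 0.78. For Fas this did not hold, with a bound of 0.43 beside 0.17. Cdkn1a, the inhibitor of cyclin-dependent kinases, lay at -3.71, -3.71, -4.00 and -4.15 in controls and at -3.61, -3.45, -3.75, -3.84 and -4.03 at 1 mg/kg. The difference was 0.15 ± 0.17 with an interval from -0.21 to 0.52, against a rise of 2.19 at 8 mg/kg. Ccng1, cyclin G1, differed by 0.23 ± 0.10 and was higher in 4 of 4 slides. Mdm2, which marks p53 for degradation, differed by 0.13 ± 0.11, Aen, an exonuclease, by 0.11 ± 0.10 and Gdf15, a stress cytokine, by 0.15 ± 0.17, with an upper bound of 0.52 beside a rise of 1.56 at 8 mg/kg. For Aen the upper bound of 0.32 compares with a rise of 1.26 at 8 mg/kg, and another Aen probe had an upper bound of 0.43. Of 30 genes on the p53 list 27 were measured, 0 passed, 2 (Ccng1 and Fas) were higher at an unadjusted p under 0.05, as were 4.95% of all genes, and all 27 were limited to less than 2-fold. The median was 0.0219.

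**Figure D3:**
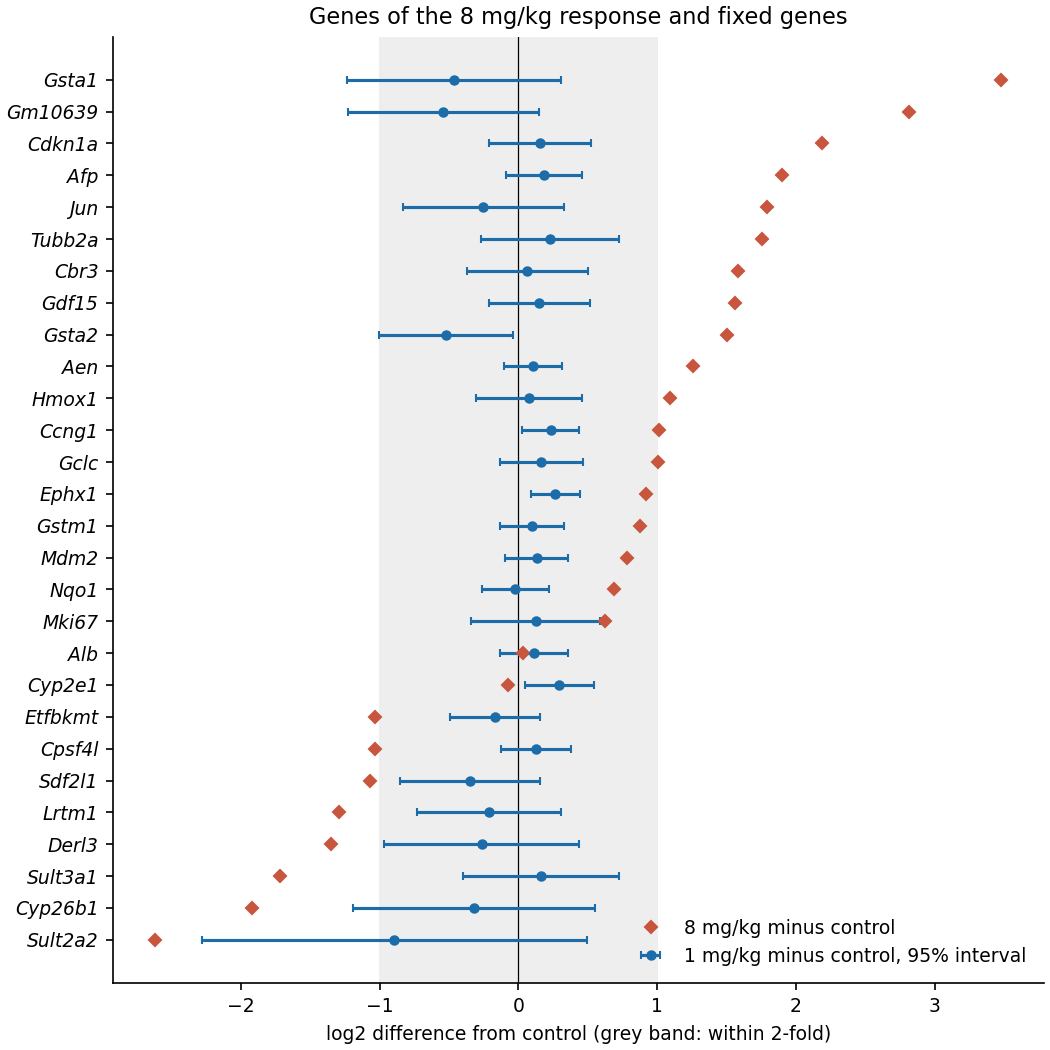
Log2 differences from control at 1 mg/kg (blue points, bars for 95% intervals from limma, n = 5 against 4) and at 8 mg/kg (red diamonds) for genes that changed most at 8 mg/kg and for a fixed set of genes. Most intervals at 1 mg/kg hold 0 and lie inside the grey band of 2-fold, while those of Sult2a2, Gsta1, Gm10639, Cyp26b1 and Gsta2 cross its lower edge.

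Markers of regeneration and proliferation had no clear difference at this precision. Afp, the alpha-fetoprotein of fetal liver, lay between -1.80 and -1.70 in controls and between -1.69 and -1.23 at 1 mg/kg. All 5 arrays at 1 mg/kg were above all 4 controls, as held for 0.523% of all genes, and the fitted difference was 0.19 ± 0.13 (limma adjusted p = 0.774) against a rise of 1.90 at 8 mg/kg. Jun, an AP-1 subunit, differed by -0.25 ± 0.27 and Mki67, a proliferation marker, by 0.13 ± 0.22. Tubb2a, a beta-tubulin, differed by 0.23 ± 0.23. The S phase list had 35 measured genes with a median of 0.0304 and the mitosis list 32 with a median of 0.0068, beside 0.0294 for all genes.

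Among genes that lay lower at 8 mg/kg, the Sult2a sulfotransferases were too variable to bound at 1 mg/kg. Sult2a6, which sulfates steroids and bile acids, lay at 5.13, 6.04, 7.53 and 6.61 in controls and at 6.55, 4.52, 6.04, 3.75 and 5.37 at 1 mg/kg. Within slides its difference ran from -3.78 on slide 3 to 1.43 on slide 2. The fitted value was -0.98 ± 0.67 (limma adjusted p = 0.773), with an interval from -2.42 to 0.45. Sult2a2, a close relative that can share its probe signal, differed by -0.89 ± 0.65. Sult2a1, which did not pass at 8 mg/kg (limma adjusted p = 0.202), differed by -0.61 ± 0.72 at 1 mg/kg. Cyp26b1, which degrades retinoic acid, differed by -0.32 ± 0.41, and 1 mg/kg replicate 3 at 1.32 was far below the other 4 treated mice, at 2.32 to 2.56. Sult3a1, by contrast, differed by 0.17 ± 0.26 and was limited to less than 2-fold by the adjusted test. Cpsf4l differed by 0.13 ± 0.12, where the lower bound of -0.13 compares with a fall of 1.04 at 8 mg/kg.

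The largest well-measured differences towards higher values at 1 mg/kg included both liver metallothioneins, small cysteine-rich proteins that bind zinc and copper and quench reactive species. Their transcription is switched on through metal response elements bound by the zinc sensor Mtf1, and also by glucocorticoids and acute phase signals. They are shown here because the pair lay at like values and such elements lie in promoters. The stretch of 250 bases before each annotated start was taken from RefSeq (GRCm38.p6), where Mt1 lies at chr8:94178839-94179088 and Mt2 at chr8:94172368-94172617, both on the plus strand. Capitals mark the core motifs TGCACNC and TGCGCNC, searched on both strands.
Mt1: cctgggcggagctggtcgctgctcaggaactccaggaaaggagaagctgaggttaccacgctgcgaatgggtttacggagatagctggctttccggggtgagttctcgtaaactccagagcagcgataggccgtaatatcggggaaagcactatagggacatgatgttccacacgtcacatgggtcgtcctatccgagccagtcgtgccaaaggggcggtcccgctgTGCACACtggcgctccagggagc
Mt2: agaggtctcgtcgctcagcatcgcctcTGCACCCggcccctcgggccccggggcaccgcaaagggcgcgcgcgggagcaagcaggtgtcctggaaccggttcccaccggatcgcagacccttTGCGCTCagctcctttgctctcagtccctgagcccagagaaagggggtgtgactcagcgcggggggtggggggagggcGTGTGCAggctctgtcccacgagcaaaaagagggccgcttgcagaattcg
The Mt1 window holds 1 such core and the Mt2 window 3. Of 32841 promoter windows of this length 7031 (21.4%) hold at least 1 and 415 (1.26%) at least 3. A match of letters is a description of the window and no evidence of binding, and elements beyond the annotated start were not searched. The annotated start of Mt1 may differ from the one used in liver, so its window may miss such elements.

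Mt2 lay at -0.41, -0.67, 1.18 and -0.42 in control replicates 1 to 4 and at -0.14, 1.09, 0.03, 2.17 and 0.79 in 1 mg/kg replicates 1 to 5. The groups overlapped through control replicate 3 of slide 3, and within slides the array at 1 mg/kg was the higher in 4 of 4, by 0.27 to 1.21. The fitted difference was 0.81 ± 0.18 on the log2 scale (1.75-fold, 95% interval 1.34 to 2.29; limma adjusted p = 0.582). It was above 0 in all 26 alternatives, at 0.54 to 1.00, and passed in 0 of them.

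Mt1 lay at 0.17, -0.45, 1.06 and 0.03 in controls and at 0.13, 1.35, 0.14, 2.08 and 1.16 at 1 mg/kg. It was higher in 3 of 4 slides, with -0.04 on slide 2 and 0.59 to 1.13 on the others. The difference was 0.69 ± 0.21 (adjusted p = 0.701). At 8 mg/kg Mt2 differed from control by -0.10 and Mt1 by 0.0749. The direct difference between 8 and 1 mg/kg was -0.91 ± 0.16 for Mt2 (adjusted p = 0.00725) and -0.62 ± 0.19 for Mt1 (adjusted p = 0.0747). Mt2 was named for its value in the arrays at 1 mg/kg, which that contrast shares, so its p is not independent of the choice. A pair of genes looked at after these values were seen lay closer to control: Mt3 differed by -0.08 ± 0.12 and the zinc exporter gene Slc30a1, also controlled by Mtf1, by 0.13 ± 0.10.

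**Figure D4:**
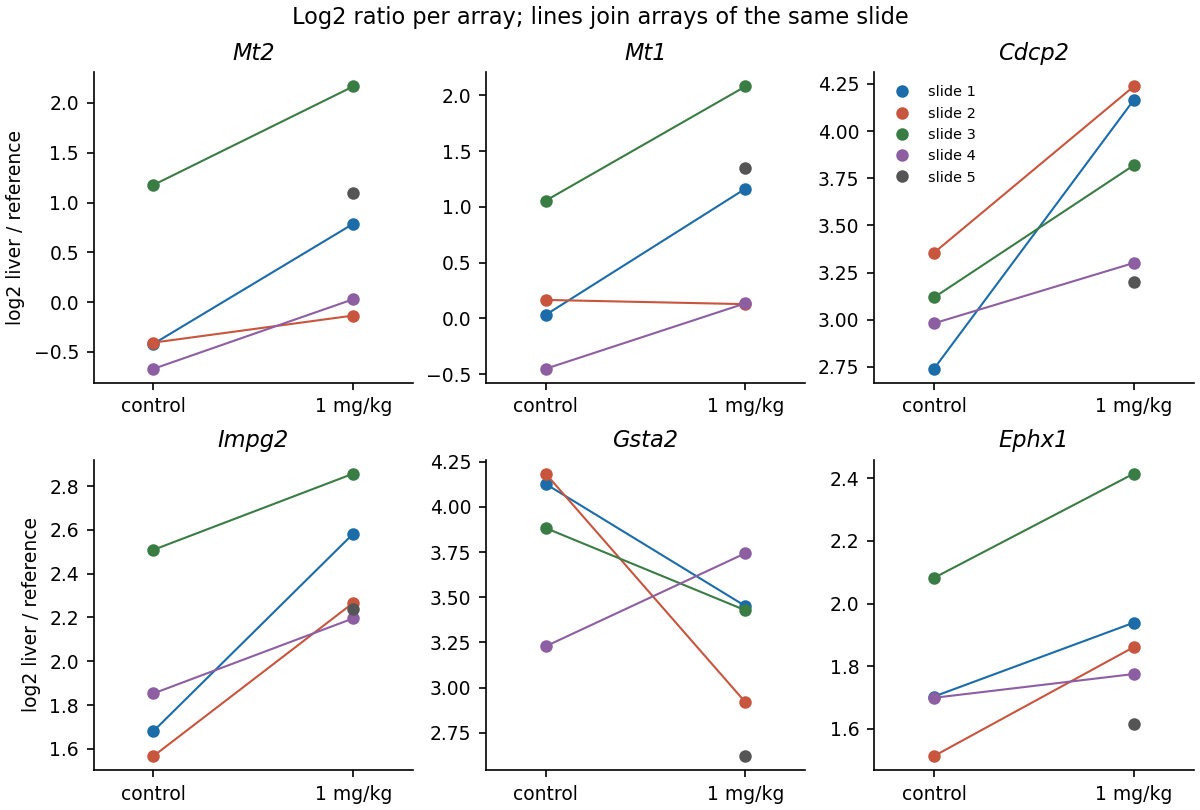
Log2 ratio of liver over reference in each of the 9 arrays for 6 genes, with lines joining the control and the 1 mg/kg array of the same slide and slide 5 shown without a control. Mt2, Cdcp2, Impg2 and Ephx1 are higher at 1 mg/kg in 4 of 4 slides, Mt1 in 3, and Gsta2 is lower in 3.

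Other genes with small p-values were a mixed set. They were chosen for their p and for one sign in all 4 slides, so their values are descriptions. Cdcp2, a CUB domain protein, lay at 3.36, 2.98, 3.12 and 2.74 in controls and at 4.24, 3.20, 3.30, 3.82 and 4.17 at 1 mg/kg. Its within-slide differences ran from 0.32 on slide 4 to 1.43 on slide 1, and the fitted difference was 0.85 ± 0.15 (limma adjusted p = 0.404). It passed the test under 2 of 26 alternatives, median centring and leaving out 1 mg/kg replicate 3. Impg2, which encodes a proteoglycan known from the retina, lay between 1.57 and 2.51 in controls and between 2.20 and 2.86 at 1 mg/kg, a difference of 0.61 ± 0.10 (adjusted p = 0.404). The ranges overlapped through the high control of slide 3.

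Scap, a sterol-sensing escort protein in the control of lipid synthesis, belonged to the same set. It lay at 1.76, 2.03, 2.12 and 1.99 in controls and at 2.24, 2.37, 2.30, 2.34 and 2.44 at 1 mg/kg, so that the groups did not overlap, as for 0.523% of genes. The difference was 0.37 ± 0.08 (limma adjusted p = 0.582). Cd207, the langerin of antigen-presenting cells, differed by 0.43 ± 0.09 and Cd83, an activation marker of such cells, by 0.48 ± 0.11, and Cd207 changed sign in 1 of 26 alternatives. At 8 mg/kg, against the same controls, Cd83 was higher by 0.80 (limma adjusted p = 0.00114) and Cd207 by 0.0712. Larger differences at 1 mg/kg, with wider errors, were those of Nox4, a hydrogen peroxide-producing NADPH oxidase (0.70 ± 0.22), and Bcl6, a transcriptional repressor (0.73 ± 0.26). A dimmer Nox4 probe gave 0.15 ± 0.09, and within slides 1 to 4 the brighter one differed by 1.3, 0.25, 1.1 and 0.04. Bcl6 lay at -1.12, -0.95, -0.38 and -0.07 in controls and split at 1 mg/kg into -1.19 and -1.35 in replicates 1 and 2 and 0.07, 0.91 and 1.06 in replicates 3 to 5.

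Towards lower values, among genes chosen for small p and 1 sign in all 4 slides, the differences were mostly smaller. Sult2a6, given above, lay further below control with a wider error. Dmtf1, a Myb-like transcription factor linked to the Arf and p53 pathway, lay at -0.46, -0.08, -0.26 and -0.09 in controls and at -0.62, -0.46, -0.63, -0.70 and -0.60 at 1 mg/kg. All 5 treated arrays lay below all 4 controls, as for 0.305% of genes, by 0.41 ± 0.11 in the fit (difference -0.41, limma adjusted p = 0.701), whereas the difference at 8 mg/kg was -0.0003. Taf15, an RNA-binding protein of the transcription machinery, differed by -0.30 ± 0.08. The noncoding host gene Snhg7 lay between -1.81 and -1.59 in controls and between -2.21 and -1.85 at 1 mg/kg, again with no overlap, at -0.32 ± 0.10. Ddx25, an RNA helicase, differed by -0.34 ± 0.08. At 8 mg/kg, against the same controls, Ddx25 differed by -0.42 (limma adjusted p = 0.0153), Snhg7 by -0.14 and Taf15 by -0.0693.

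The fatty acid oxidation list held many small positive values. Of 38 PPARA targets and fatty acid oxidation genes 36 were measured, 33 lay above 0 and 3 below, and the median was 0.14 beside 0.0294 for all genes, where 13283 of 21976 lay above 0. No member passed, and 6 were higher at an unadjusted p under 0.05 (4.95% of all genes). Decr1, an auxiliary enzyme of mitochondrial oxidation of unsaturated fatty acids, lay at 4.76, 4.72, 4.61 and 4.71 in controls and at 5.03, 4.93, 5.02, 4.93 and 4.94 at 1 mg/kg. The groups did not overlap, and the fitted difference was 0.28 ± 0.09 (limma adjusted p = 0.701). Acaa1a, a peroxisomal thiolase, differed by 0.25 ± 0.09. Acadm and Acadvl, acyl-CoA dehydrogenases, differed by 0.26 ± 0.10 and 0.23 ± 0.09. Within slide 3 the list median was 0.33, and without that slide it was 0.0831, with 26 of 36 above 0. It was 0.13 without slide 1. With the liver channel alone it was 0.12, with 2 genes higher and 1 lower at an unadjusted p under 0.05. With the scanner's processed signals it was 0.0535, with 23 of 36 above 0 and 1 gene higher and 1 lower at that p. Among other metabolic lists, fatty acid synthesis had 11 genes above 0 and 13 below, with a median of -0.004, and gluconeogenesis had 13 of 22 above 0, with a median of 0.0203.

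Markers of nonparenchymal liver cells lay slightly higher at 1 mg/kg, and slide 1 carried much of this. Fewer or more cells of a type and less or more RNA per cell cannot be told apart in such bulk tissue. Stellate cells store vitamin A and make matrix when activated. Of their 24 markers 23 were measured, 20 lay above 0, 0 passed and 8 were higher at an unadjusted p under 0.05 (4.95% of all genes), with a median of 0.19. With the liver channel alone 3 members were higher at that p and with the scanner's processed signals 2, with medians of 0.11 and 0.0883. Rgs5, a pericyte gene, lay at 3.04, 3.56, 4.19 and 2.93 in controls and at 3.79, 3.82, 3.65, 4.02 and 4.09 at 1 mg/kg. The groups overlapped, and the difference was 0.47 ± 0.16 (limma adjusted p = 0.701). Of other markers of these cells, Des and Pdgfrb differed by -0.0567 and -0.0924 and Lrat by 0.31 ± 0.17. In the whole list 3 measured markers lay below 0. The mean normalized log2 liver-channel intensity of the list ran from 10.1 to 10.4 over controls and from 10.2 to 10.5 over arrays at 1 mg/kg, and Gfap was well above background on none of the 9. Within slides 1 to 4 the list median was 0.39, 0.31, -0.0613 and -0.0068. Without slide 1 it was 0.0986, and 1 member was at an unadjusted p under 0.05.

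Kupffer cells, the resident macrophages of the liver, gave a median of 0.14 over 28 of 30 markers, with 6 higher at an unadjusted p under 0.05 (4.95% of all genes). With the scanner's processed signals 2 were, with a median of 0.064. Lyz2, lysozyme, lay at 0.38, 0.35, 0.47 and 0.51 in controls and at 0.82, 0.59, 0.56, 0.82 and 1.11 at 1 mg/kg, with no overlap, at 0.41 ± 0.12. Ctss, cathepsin S, differed by 0.37 ± 0.10, and Clec4f, which defines mouse Kupffer cells, by 0.11. The sinusoidal endothelial list had a median of 0.13, with Tek, the angiopoietin receptor, at 0.38 ± 0.13. Mean log2 intensities of the Kupffer list were 9.88 to 10.2 over controls and 9.86 to 10.4 at 1 mg/kg, and those of the endothelial list 9.58 to 9.84 and 9.62 to 10.0. On slide 1 the medians of these lists were 0.42 and 0.40 and on slide 4 they were -0.11 and -0.0698. On slide 1 the array at 1 mg/kg had 29850 probes well above background and its control 24989, and the part of this in the result was not tested. Without slide 1 the medians were 0.0607 and 0.0446, with 2 Kupffer and 0 endothelial genes higher at an unadjusted p under 0.05. The hepatocyte list had a median of 0.0913, and 0.25 on slide 1, but -0.0096 with the liver channel alone and -0.0599 with the scanner's processed signals.

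**Figure D5:**
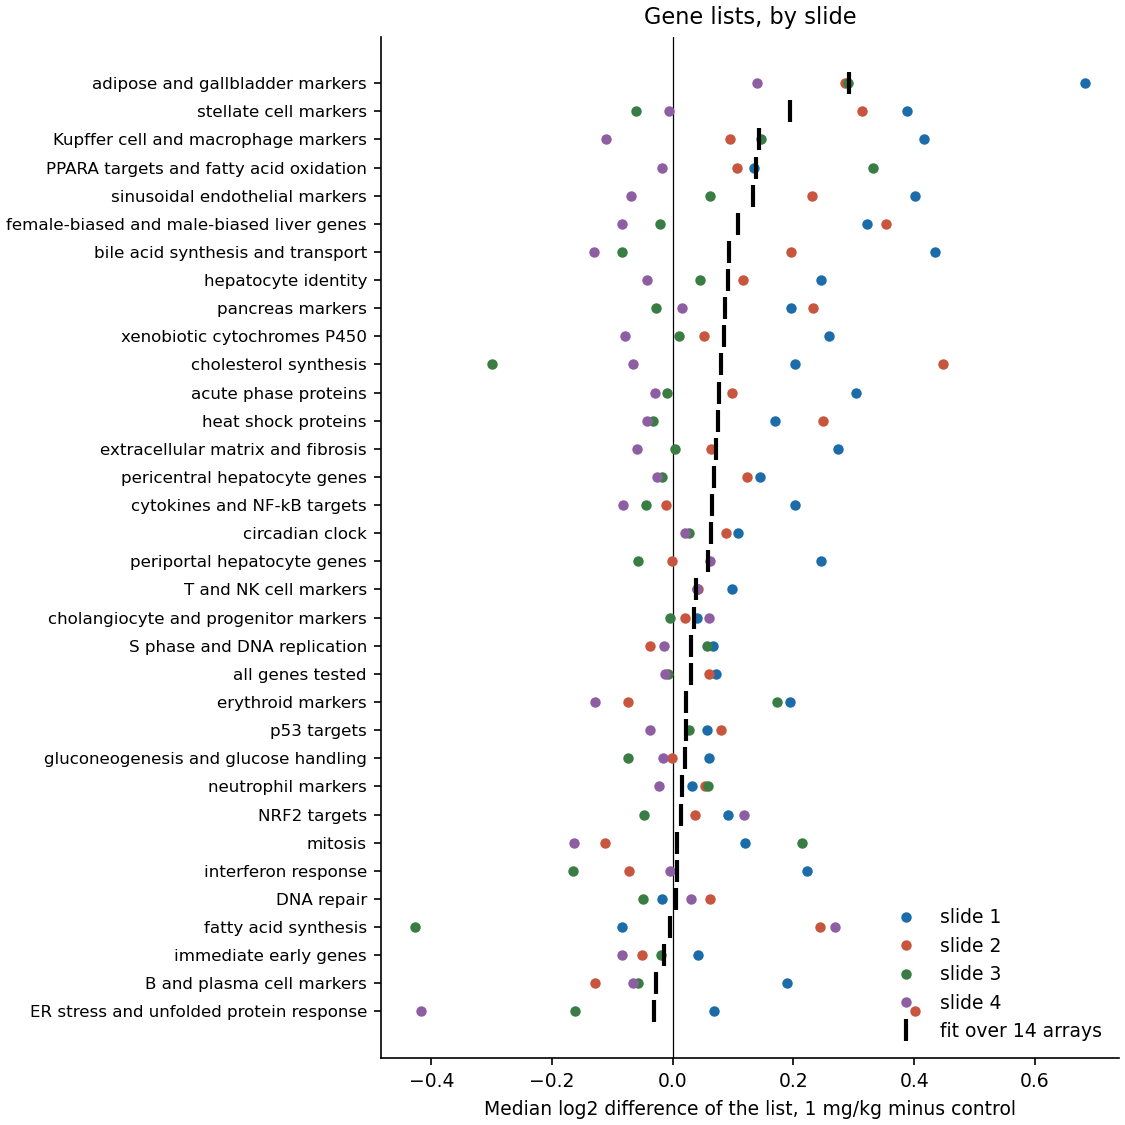
Median log2 difference between 1 mg/kg and control for 33 gene lists and for all genes tested, on each of the 4 slides that held both groups (points) and in the fit over 14 arrays (black ticks). Most lists have a positive median on slide 1, as with 0.42 for Kupffer cell markers, and values near or below 0 on slide 4, as with -0.11.

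The 2 differences above 2-fold belonged to genes not well above background in any control. Cfd, adipsin, which fat cells secrete, was well above background on 0 of 4 control and 3 of 5 treated arrays. It lay at -0.20, -0.11, -0.22 and -0.09 in controls and at 2.63, -0.11, 0.10, 0.52 and 5.52 at 1 mg/kg, so that 1 mg/kg replicates 1 and 5 carried the difference. In the fit Cfd differed by 2.20 ± 0.92, with an interval from 0.23 to 4.18 (limma adjusted p = 0.701). Against the lowest measurable control signal its mean at 1 mg/kg was at least 2.87-fold higher. Such a bound is a ratio of means that carries no sampling error. It compares signals of different probes and is open to dye bias, since no dyes were swapped. Dmbt1, a secreted mucosal protein, was well above background on 0 of 4 and 3 of 5 arrays and at least 2.38-fold higher. Its 1 mg/kg replicates 1, 4 and 5 lay at 1.71, 2.22 and 2.63 against -0.13 to 0.19 in controls. The fitted difference of Dmbt1 was 1.60 ± 0.67, with an interval from 0.17 to 3.03 (limma adjusted p = 0.701). Tff2, another mucosal protein, was detected on 1 of 4 and 3 of 5 arrays and was highest, at 1.79, in 1 mg/kg replicate 5.

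Cfd and Tff2 belong to a list of 14 adipose and gallbladder markers, of which 9 were measured. Adipoq, Plin1 and Lep, which define fat cells, were not among them, since their probes were well above background on fewer than 4 of the 14 arrays. Its median difference was 0.29, and 0.68 on slide 1. The mean normalized log2 liver-channel intensity of the 9 genes ran from 8.78 to 9.04 over controls and from 8.78 to 10.0 over arrays at 1 mg/kg. Fabp4, the fat cell lipid chaperone, was at 4.14 in 1 mg/kg replicate 5 and between 2.50 and 3.07 in the other 8 arrays, whereas Muc5b, a mucin, differed by -0.03 ± 0.15. The part of fat or gallbladder tissue in these values was not tested. Of 23 pancreas markers 9 could be tested, with a median of 0.0857, and Prss1, Cpa1 and Cela3b were well above background on none of the 9 arrays.

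Over the 33 lists, 0 members passed at 1 mg/kg in limma's test. The acute phase list had 7 of 33 genes higher at an unadjusted p under 0.05 (4.95% of all genes), Mt2 and Mt1 among them, and a median of 0.0772. Without slide 1 there were 3, with a median of 0.0083. With the liver channel alone 3 were higher and 1 lower, with a median of -0.0074, and with the scanner's processed signals 2 were higher, with a median of -0.0326. Single members were ceruloplasmin (Cp) at 0.37 ± 0.10 and complement C3 at 0.34 ± 0.11. Orm3, an orosomucoid of the same list, lay at -0.56 ± 0.27, with -1.93 on slide 3 and -0.195 to 0.17 on the other slides. The interferon list had 17 of 34 genes on each side of 0, the DNA repair list a median of 0.0049, and the ER stress list one of -0.03, with within-slide medians from -0.42 on slide 4 to 0.40 on slide 2. The T and NK cell, B and plasma cell, neutrophil and erythroid lists had medians of 0.0377, -0.03, 0.0154 and 0.0225, and 0 of their members were lower and 1 (Car2, carbonic anhydrase 2) was higher at an unadjusted p under 0.05. For bile acid transport, Slco1a1, an organic anion uptake carrier, differed by 0.54 ± 0.22, with 1.46 on slide 1 and -0.45 on slide 4.

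The precision reached by single genes marks what this design could see. The narrowest interval among named genes well above background on all 14 arrays was that of Opa1, which fuses inner mitochondrial membranes, from 0.0315 to 0.34 around a difference of 0.185. Polr2k, a subunit of RNA polymerases, differed by 0.0281 with an interval of -0.13 to 0.18, and C1qbp, a mitochondrial matrix protein, by 0.0306 with -0.12 to 0.19. At the other end, among named genes well above background on all 14 arrays, the widest intervals were those of Sult2a6, Sult2a2, Cyp26b1, the neurotrophin receptor gene Ntrk2 and Gsta1. Ntrk2 ran from -1.26 to 0.35 around -0.46, with -1.90 on slide 3 and 1.22 on slide 4.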

How the data were processed

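Liver RNA of 14 mice was measured on Agilent SurePrint G3 8x60K arrays. The deposited scanner files hold intensities per spot, written by Feature Extraction 10.7.3.1 per the file headers. A further table deposited by the authors holds linear ratios of Cy5 over Cy3: its columns have medians of 0.9765 to 0.9897 and, on the log2 scale, correlations of 0.9921 to 0.9951 with the values here. How it was normalized is not stated in the labels or headers, and it served as an alternative. The scanner files give the median and not the mean spot signal, so median intensities were used.

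Intensities were corrected with normexp (offset 50) and normalized by loess within arrays, with control spots at weight 0 in the loess. Of 62976 spots, 3671 were control spots and 178 to 336 per array were flagged as outliers and left out; 0 were saturated. Of 55681 probes, 26413 were named through RefSeq (GRCm38.p6) and 29268 were not. A probe was kept if well above background on at least 4 of 14 arrays (28867 probes). The brightest probe stood for a gene, which left 21976 genes (13773 named and 8203 unnamed features). Among the named genes, 3372 symbols had more than 1 probe.

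Differences were fitted with limma 3.58.1 (R 4.3.3) on 14 arrays with slide as a fixed block, residual df 7, and p-values adjusted by Benjamini-Hochberg at 0.05. In the contrast each control weighs -0.25, each 1 mg/kg array on slides 1 to 4 weighs 0.225, and replicate 2, which has no control on its slide, weighs 0.1 by way of the 8 mg/kg array beside it. Limits came from one-sided moderated tests of the same fit, against 1.5-fold and 2-fold. A 95% interval is unadjusted. The scripts were tested on simulated data. The design text calls the mice biological replicates. The number of arrays limits the precision.

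Named genes were those passing at 1 mg/kg (0), the 10 smallest p in each direction with 1 sign in all 4 slides, the 5 largest differences each way among genes well above background on all 9 arrays, the 8 largest rises and falls that passed at 8 mg/kg with 1 sign in all 4 slides and every array of a group well above background, a fixed set, the 5 narrowest and widest intervals, and the 3 smallest p of each list. Genes named outside this rule (Dmbt1, Mt3, Slc30a1, Fabp4, Muc5b, Des, Pdgfrb, Lrat, Clec4f, Acadm, Acadvl, C3) were chosen after their values were seen. The members and lists were chosen with earlier results of these data known. The planned count of genes that differ between 8 and 1 mg/kg among those called at 8 mg/kg is not given, since both share arrays. Alternatives covered background, scaling, slide, filter, probe rule, arrays and replicates, and leaving out slide 1 was added after seeing the data. Some genes that the rule names are not reported here. Figures were drawn with matplotlib.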

Additional observations from a re-analysis of the deposited data

Results flagged for a closer look

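Among 296 combinations of a gene (or the number of probes well above background) and a group tested (4 controls or 5 arrays at 1 mg/kg), 25 held 1 array far from the rest of its group. The rule would flag about 1 in 20 among unrelated, normally spread values. Here the genes share the same arrays, many were named for their values in them, and slide was not taken out. The 2 shares are therefore not compared. Values below are log2 ratios of liver over reference. Of these arrays, 8 were control replicate 3 and 4 were 1 mg/kg replicate 4, the pair on slide 3 that stood apart on the first principal component. Control replicate 3 was highest for Mt2 (1.18, others -0.67 to -0.41), B2m (2.19), C1qb (4.11), Cpsf4l (4.28) and Fn1 (0.56), and lowest for Atm (-0.75), Kif11 (-3.48) and Prf1 (-0.18). On the same slide, 1 mg/kg replicate 4 was highest for Cd207 (3.51), Cp (3.57) and Cpsf4l (4.08, others 3.35 to 3.52) and lowest for Ddx25 (-1.12). At 1 mg/kg, replicate 5 on slide 1 was highest for Nr1d2 (1.95), Tfrc (-0.85) and Vpreb3 (0.32). Replicate 2, alone with an 8 mg/kg array on slide 5, was highest for Ctrb1 (2.20), a pancreatic protease gene, and Klf6 (-1.78) and lowest for Aen (-0.84) and Prtn3 (-0.27). Replicate 3 was lowest for Cyp26b1 (1.32, others 2.32 to 2.56) and Foxa3 (4.04), and replicate 1 for Hmox1 (-2.18). Among controls, replicate 2 was lowest for Irs1 (0.52) and Tap1 (-0.17) and replicate 4 for Jchain (-4.43).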

How the results depend on the processing

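Over 26 alternatives, 0 genes passed at 1 mg/kg in most. With no background correction, with an offset of 16, with the authors' ratios and with no filter on dim probes 1 feature passed each, and with median centring 4 did. With each array left out in turn 0 to 3 passed, the 3 without 1 mg/kg replicate 3. These calls came to 5 distinct features, of which 2 had a symbol, Cdcp2 among them. The median absolute difference was 0.15 with median centring and 0.0769 to 0.0960 with arrays left out in turn. With no filter 37163 genes were tested, and 37120 and 36696 were limited to less than 2-fold and 1.5-fold, since more genes were tested. With arrays left out in turn, 21892 to 21942 and 21054 to 21492 genes were limited. With the scanner's processed signals these counts were 20020 and 15980. Genes past 1.5-fold numbered 46 without slide 3, beside 29. The cause was not tested. Of 3888 pairs of named gene and alternative, 3 passed, 74 had the opposite sign and 0 did both. Replicate numbers recur across groups but did not pair the samples (correlations of deviations 0.0860, 0.23, -0.43 and -0.25 for numbers 1 to 4). With a replicate block 0 genes passed, 501 had an unadjusted p under 0.05, and 21869 and 20536 were limited. Signal over background limits what is known of dim genes, whose bounds moved with the background method.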
